A study of Mus musculus with 6 samples.

Results

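The Hox cluster genes were described in 4T1 cells given a saline control and in 4T1 cells given drug-loaded nanoparticles. Members were the genes whose symbol is Hoxa, Hoxb, Hoxc or Hoxd followed by a number, which took 39 of the 22105 genes of the deposited table: 11 of the HoxA cluster, 10 of HoxB, 9 of HoxC and 9 of HoxD. 4T1 is a mouse mammary carcinoma line, here grown in culture. One group of 3 libraries came from 4T1 cells given phosphate-buffered saline (PBS) for 24 h. The other group of 3 came from 4T1 cells given CM-PEG-PLGA@DOX/R848 nanoparticles for 24 h at a dose equivalent to 2 µg/mL of DOX. No library was from cells before treatment, so a rise or fall below is a difference between the groups. DOX is doxorubicin, an anthracycline that traps topoisomerase II on DNA. R848 is resiquimod, a small molecule that activates TLR7 and TLR8, receptors for RNA in endosomes. PEG-PLGA is a block copolymer of polyethylene glycol and poly(lactic-co-glycolic acid), and the labels do not spell out CM. Cells given empty particles, free DOX or free R848 were not analysed here, so effects of the particle and of each drug cannot be told apart. Whether libraries of a group are separate cultures is not said in the labels. The p-values then cover the spread among these libraries alone, and it may be technical.

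Hox genes encode homeodomain transcription factors that give cells their position along the body axis. In mammals they lie in 4 clusters, and genes at the same place in different clusters form paralogue groups, numbered from the 3′ end of each cluster. Genes near the 3′ end are switched on earlier and further forward in the embryo than genes near the 5′ end, and adult tissues and the tumours that arise from them often keep a stable Hox pattern. In the mammary gland, Hoxa5 takes part in epithelial development and the paralogue group 9 genes act during the changes of pregnancy. Polycomb complexes keep silent Hox genes repressed, MLL and trithorax proteins keep active ones on, and CTCF with cohesin partitions the clusters.

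The promoters of Hoxa5, Hoxa10 and Hoxa2 are shown first, because these genes had the highest level, the second highest level and the only Hox-Pbx composite site among the HoxA promoters given. Each is the 250 bases upstream of a RefSeq gene start on GRCm38.p6, on the minus strand of chromosome 6, written 5′ to 3′, with matches to the searched motifs in capitals. The Hoxa5 window is chr6:52204588-52204837, the Hoxa10 window is chr6:52240855-52241104 and the Hoxa2 window is chr6:52164832-52165081.
Hoxa5: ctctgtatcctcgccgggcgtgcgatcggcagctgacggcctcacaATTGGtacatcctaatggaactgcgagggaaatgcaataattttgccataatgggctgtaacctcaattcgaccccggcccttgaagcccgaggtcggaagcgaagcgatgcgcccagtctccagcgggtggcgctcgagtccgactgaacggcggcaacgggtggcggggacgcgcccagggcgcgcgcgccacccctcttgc
Hoxa10: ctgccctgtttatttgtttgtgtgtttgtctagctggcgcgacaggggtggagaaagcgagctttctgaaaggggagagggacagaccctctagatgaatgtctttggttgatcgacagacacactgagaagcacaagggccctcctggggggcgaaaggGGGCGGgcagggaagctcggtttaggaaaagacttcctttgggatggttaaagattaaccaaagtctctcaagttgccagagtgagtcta
Hoxa2: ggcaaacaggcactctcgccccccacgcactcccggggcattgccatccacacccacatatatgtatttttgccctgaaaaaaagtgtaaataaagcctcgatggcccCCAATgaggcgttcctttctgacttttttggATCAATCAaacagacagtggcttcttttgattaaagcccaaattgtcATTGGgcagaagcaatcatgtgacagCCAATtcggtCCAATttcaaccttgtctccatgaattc
Both strands were searched, with overlapping matches allowed, and shares are of the 32851 promoter windows of the table. The core promoter element TATAAA was in 12.4% of them. The NF-Y element CCAAT was in 33.8%, and the Sp1 element GGGCGG was in 32.7%. The E box CACGTG was found in 6.02%. A composite site for a Hox protein with Pbx, written TGATTNAT, was found in 2.82%. The Hoxa5 window held 1 CCAAT match and 28 CpG dinucleotides, the Hoxa10 window 1 GGGCGG match and 7 CpG, and the Hoxa2 window 4 CCAAT matches, 1 TGATTNAT match and 6 CpG. The table matched 22 of the 39 Hox genes with 24 windows, and their median CpG count was 12.5 against 6 over all promoters. Hoxa4 was not in it. A further Hoxa10 window, not shown, held 1 TATAAA match, 1 CCAAT match and 20 CpG, and which start 4T1 cells use was not tested.

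Values are FPKM, which scale the fragments of a gene to its transcript length and the library total. Between 10596 and 10631 genes per library reached 1 FPKM. In PBS 13544 to 13808 genes per library were above 0, and after nanoparticles 18319 to 18509. A gene was tested where it reached 1 FPKM in at least 3 of the 6 libraries, which left 10863 genes, 7 of them Hox genes. The test was limma on log2(FPKM + 1), nanoparticle minus PBS, with Benjamini-Hochberg adjustment over all tested genes and calls at an adjusted p under 0.05. It called 86.4% of tested genes, 40.5% higher and 46.0% lower, so a call by itself was common. RNA was measured in bulk, so fewer cells of a type and less RNA per cell cannot be told apart.

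In PBS, Hox expression came almost entirely from HoxA. Of the 39 genes, 7 reached 1 FPKM in every PBS library, and all 7 were HoxA genes, among them Hoxa2, Hoxa3, Hoxa5, Hoxa6, Hoxa7 and Hoxa10. The HoxA cluster lies on chromosome 6 (GRCm38), with Hoxa13 at its 5′ end at 52260880. Summed FPKM of its 11 genes was 158.8, 165.3 and 164.6 in the 3 PBS libraries, which was 99.6% to 99.7% of all Hox FPKM in each library.

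The other clusters were close to 0. All 10 HoxB genes (chromosome 11, 96194316 to 96368256) were listed at 0 in every PBS library. Summed FPKM in PBS was 0.241 ± 0.127 (SD, n = 3) for the 9 HoxC genes on chromosome 15 (102921103 to 103036852) and 0.305 ± 0.0731 for the 9 HoxD genes on chromosome 2 (74668310 to 74765142). Hoxd4 was the one gene outside HoxA that reached 0.1 FPKM in each PBS library, at 0.178, 0.380 and 0.263. Hoxc6 followed at 0.323, 0.0953 and 0.226. In all, 25 Hox genes were listed at 0 in every PBS library, 2 of HoxA, 10 of HoxB, 7 of HoxC and 6 of HoxD.

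**Figure D1:**
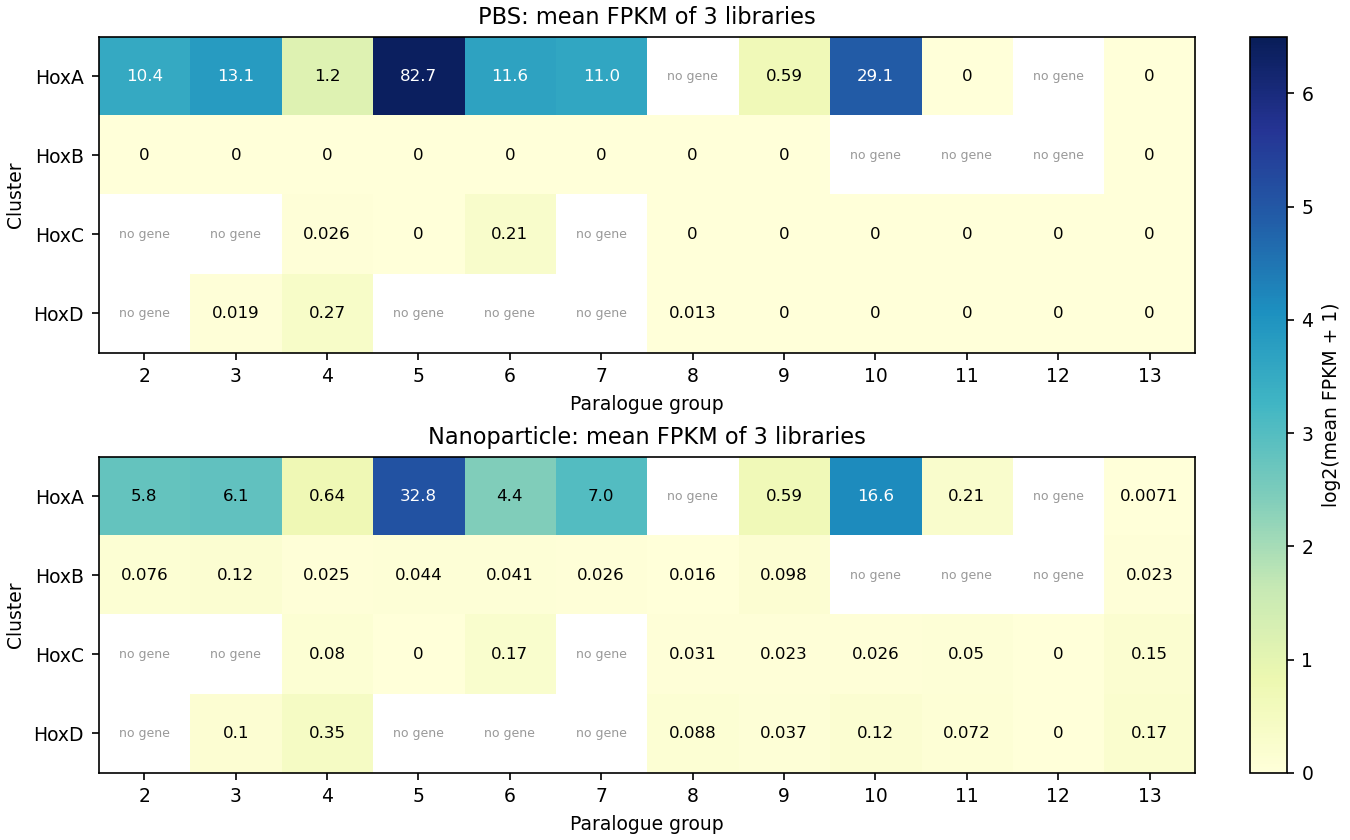
Mean FPKM of the Hox genes of paralogue groups 2 to 13 over 3 libraries, PBS above and nanoparticle below, with paralogue group on the x axis and cluster on the y axis; colour is log2(mean FPKM + 1) and white cells have no gene. The HoxA row carries the signal in both groups, with Hoxa5 at 82.7 FPKM in PBS and 32.8 in nanoparticle libraries, and no gene of the other rows reached 0.5.

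Levels along HoxA did not follow the order of the genes. By mean FPKM in PBS, Hoxa5 stood first and Hoxa10 second, followed by Hoxa3. The libraries of Hoxa6 overlapped those of Hoxa7, and those of Hoxa7 overlapped those of Hoxa2, so these neighbours were not separated by their spread. Hoxa4 and Hoxa9 came below, apart from each other. Hoxa9 (0.534, 0.718 and 0.508 FPKM) lay between strongly expressed neighbours, Hoxa7 at a mean of 10.96 and Hoxa10 at 29.1. At the 5′ end, Hoxa11 and Hoxa13 were listed at 0 in every PBS library, so the signal ended beyond Hoxa10.

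After nanoparticles, 6 of the 7 tested Hox genes fell and none rose. At an unadjusted limma p under 0.05 the counts were also 6 lower and 0 higher, and all 7 log2 fold changes were negative. The share lower was 85.7% of tested Hox genes, against 46.0% of all tested genes. Their median log2 fold change was -0.78, against -0.06 over all tested genes, whose quartiles were -0.64 and 0.50. Summed HoxA FPKM was 78.2, 79.9 and 72.1 in the nanoparticle libraries, so the mean went from 162.9 ± 3.53 to 76.7 ± 4.11 (SD, n = 3), a ratio of 0.471. Library values of the 2 groups did not overlap for the same 6 genes, and groups did not overlap, with nanoparticle lower, for 46.4% of all tested genes.

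Toward the 3′ end of the cluster, Hoxa2 and Hoxa3 fell. Hoxa2 (ENSMUSG00000014704; 52162417 to 52164831), which patterns the hindbrain and the second branchial arch, was at 10.9, 9.58 and 10.7 FPKM in PBS and 6.34, 5.59 and 5.55 after nanoparticles. Every nanoparticle library lay below every PBS library, and the mean was 56.0% of PBS. Its log2 fold change was -0.74 (SE 0.067, limma adjusted p = 3.17e-06). Hoxa3 (ENSMUSG00000079560; 52169062 to 52213336), needed for the thymus and parathyroid, was at 13.6, 12.7 and 12.98 FPKM in PBS and 5.66, 6.80 and 5.85 after nanoparticles. The groups were again apart, with the nanoparticle mean at 46.6% of PBS. Its log2 fold change was -0.99 (SE 0.066, limma adjusted p = 3.11e-07).

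The middle genes Hoxa5 and Hoxa6 fell furthest among the tested Hox genes. Hoxa5 (ENSMUSG00000038253; 52201754 to 52204587), which patterns the lung and the cervical and thoracic skeleton and is often silenced in breast cancer, was at 80.0, 85.2 and 82.8 FPKM in PBS. After nanoparticles it was at 32.9, 34.8 and 30.8 FPKM. The groups were far apart and the spread within each was small, so the mean went from 82.7 ± 2.62 to 32.8 ± 2.02, or 39.7% of PBS. On the log2 scale the change was -1.31 (SE 0.045, 95% confidence interval -1.41 to -1.20, limma adjusted p = 3.57e-09).

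Hoxa6 (ENSMUSG00000043219; 52206288 to 52208722), a thoracic-level patterning gene, was at 10.7, 11.7 and 12.6 FPKM in PBS and 4.89, 4.29 and 4.06 after nanoparticles. Its mean fell to 37.9% of PBS with no overlap, and its log2 fold change was -1.22 (SE 0.076, 95% confidence interval -1.40 to -1.05, limma adjusted p = 1.89e-07). Hoxa5 and Hoxa6 were the tested Hox genes called with a log2 fold change of -1 or less, 2 of 7 or 28.6%, against 13.5% of all tested genes. Hoxa3 stood just above that limit.

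Hoxa7 and Hoxa10, on the 5′ side, fell by less. Hoxa7 (ENSMUSG00000038236; 52214491 to 52221854), active in early blood progenitors and in leukaemias with MLL fusions, was at 10.4, 10.8 and 11.7 FPKM in PBS and 6.30, 7.41 and 7.25 after nanoparticles. All nanoparticle values lay below the PBS values, with the mean at 63.7% of PBS and a log2 fold change of -0.58 (SE 0.068, limma adjusted p = 2.13e-05). Hoxa10 (ENSMUSG00000000938; 52231197 to 52240854), which is required in the uterus for implantation, was at 28.8, 30.7 and 27.9 FPKM in PBS and 17.3, 17.6 and 14.9 after nanoparticles. It too fell without overlap, to 57.1% of PBS, with a log2 fold change of -0.78 (SE 0.065, limma adjusted p = 2.34e-06).

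**Figure D2:**
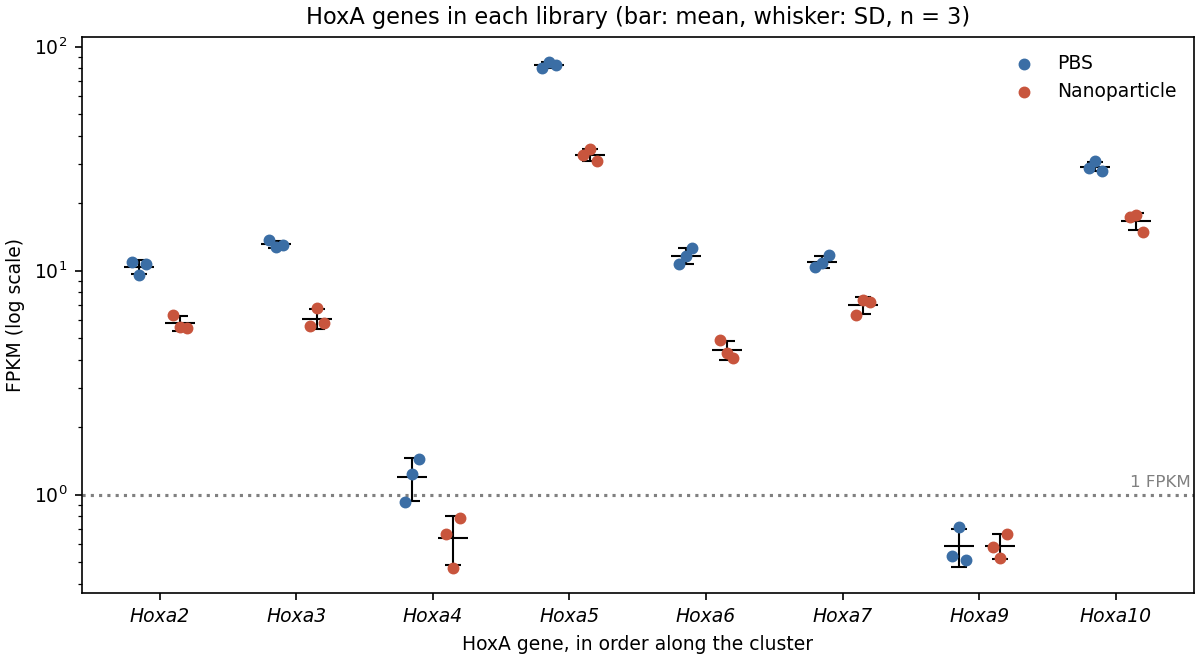
FPKM (log scale) of 8 HoxA genes detected in PBS, in order along the cluster; points are libraries, the horizontal bar is the mean and the whisker the SD (n = 3), and the dotted line marks 1 FPKM. PBS points lie above all nanoparticle points for Hoxa2, Hoxa3, Hoxa4, Hoxa5, Hoxa6, Hoxa7 and Hoxa10, and the groups overlap for Hoxa9.

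The other 4 HoxA genes did not pass the filter. Hoxa4, a cervical and thoracic patterning gene, was at 0.922, 1.23 and 1.44 FPKM in PBS and 0.668, 0.472 and 0.785 after nanoparticles. These groups did not overlap, and in the fit with no filter its log2 fold change was -0.42 (limma adjusted p = 0.0118). Hoxa9, a regulator of blood stem cells, was at 0.587 ± 0.114 FPKM in PBS and 0.590 ± 0.0736 after nanoparticles, with overlapping libraries. Hoxa11, which acts in the limb and uterus, went from 0 in every PBS library to 0.244, 0.168 and 0.223 FPKM, and Hoxa13, a gene of the digits, was above 0 in 1 nanoparticle library at 0.0213.

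Shares of Hoxa5, Hoxa7 and Hoxa10 within HoxA differed between the groups. Hoxa5 made up 50.7% ± 0.716 (SD, n = 3) of summed HoxA FPKM in PBS and 42.8% ± 0.744 after nanoparticles, while Hoxa10 went from 17.9% ± 0.825 to 21.6% ± 0.849 and Hoxa7 from 6.73% ± 0.336 to 9.13% ± 1.006. Shares of one sum are tied to each other, so ratios were also taken. The Hoxa5 to Hoxa7 ratio of FPKM went from 7.56 ± 0.432 to 4.72 ± 0.489 and the Hoxa5 to Hoxa10 ratio from 2.84 ± 0.106 to 1.98 ± 0.084. Of the 6 ratios of Hoxa5 to another tested HoxA gene, 5 did not overlap between groups. Each of these had a two-sided p of 0.1 (exact permutation test), the smallest that 3 libraries against 3 can give. Adjusted over the 6 ratios, this exact permutation p was 0.12. All 6 share Hoxa5, so they are not separate results, and ratios of other gene pairs were not computed. The Hoxa5 to Hoxa6 ratio overlapped, at 7.12 ± 0.495 and 7.48 ± 0.702 (exact permutation p = 0.5). In nanoparticle libraries the order below Hoxa5 and Hoxa10 was Hoxa7, Hoxa3 and Hoxa2 with overlapping neighbours, then Hoxa6, which in PBS had overlapped Hoxa7.

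Some HoxA genes share exonic bases with other transcripts, and the sources used here do not give the strand setting of the counting. In GENCODE M21 (GRCm38), 25.4% of the exonic bases of Hoxa3, 20.4% of those of Hoxa7 and 16.0% of those of Hoxa4 lay opposite an antisense transcript. A transcript model on the same strand shared 15.04% of the exonic bases of Hoxa2 and 8.01% of those of Hoxa3. For Hoxa5, Hoxa6 and Hoxa10 no such overlap was found in that annotation. Levels of Hoxa2, Hoxa3, Hoxa4 and Hoxa7 are therefore uncertain by an amount that was not measured, and for Hoxa11 the antisense share was 35.0%. Noncoding RNAs of the clusters were not analysed here.

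Genes of the other clusters stayed very low after nanoparticles but were more often above 0. The number of Hox genes above 0 was 12, 11 and 13 in the PBS libraries and 32, 29 and 32 in the nanoparticle libraries. Summed FPKM in nanoparticle libraries was 0.492 ± 0.0806 for HoxB, 0.530 ± 0.226 for HoxC and 0.972 ± 0.203 for HoxD (SD, n = 3). HoxA still made up 97.2% to 97.8% of all Hox FPKM. The highest single value outside HoxA was 0.448 FPKM, for Hoxd4, which was at 0.180, 0.407 and 0.448 and overlapped its PBS values. Hoxc6, at 0.191, 0.0632 and 0.270 FPKM, overlapped its PBS values as well.

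Hoxd13, the most 5′ gene of HoxD and a regulator of digit formation, was listed at 0 in PBS and was at 0.166, 0.188 and 0.142 FPKM after nanoparticles. It joined Hoxd4 as the genes outside HoxA that reached 0.1 FPKM in every nanoparticle library. In all, 10 genes were listed at 0 in every PBS library and above 0 in every nanoparticle library, among them Hoxb3 (0.116, 0.149 and 0.0832 FPKM) and Hoxc13 (0.245, 0.102 and 0.0901), both given here after their values were seen. Hoxc5, Hoxc12 and Hoxd12 were listed at 0 in all 6 libraries.

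More genes that a mammary line is not known to use were also above 0 after nanoparticles. Of the 1546 olfactory and vomeronasal receptor genes, 3.23% to 3.62% were above 0 per PBS library and 44.3% to 46.5% per nanoparticle library. Of the 28 HoxB, HoxC and HoxD genes, 7.14% to 14.3% were above 0 in PBS and 67.9% to 78.6% after nanoparticles. Over all 11242 untested genes, 24.0% to 26.3% were above 0 in PBS and 66.3% to 68.1% after nanoparticles. Among the 29 untested Hox genes above 0 in at least 1 library, 10 (34.5%) had nanoparticle values above every PBS value, against 48.9% of the 9261 untested genes of the whole table. With no filter, limma called 9 of 36 Hox genes higher (the 36 include the 7 expressed ones), against 42.0% of all 20124 genes, with log2 fold changes of at most 0.28. All 9 were listed at 0 in every PBS library, so they could only be called higher, and the count shows no direction. The same fit called 7 lower, against 26.0%. On values rescaled to a fixed sum per library (TPM scale), 9 Hox genes were at 1 or more in every PBS library. There 8 Hox genes were called lower, against 51.4% of all 11505 genes tested. By presence above 0 the order was the other way: of the 25 Hox genes listed at 0 in every PBS library, 60.0% to 72.0% were above 0 per nanoparticle library, against 53.7% to 55.5% of the 7328 such genes of the whole table. No test compared these sets, and the depth behind a value of 0 is unknown.

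**Figure D3:**
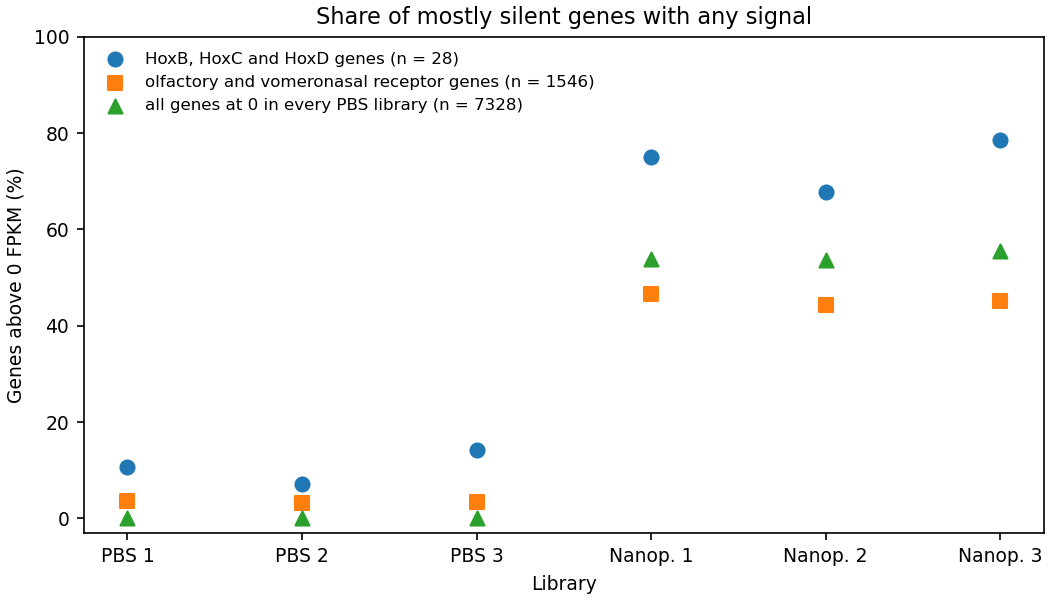
Percentage of genes above 0 FPKM (y axis) in each library (x axis) for the 28 HoxB, HoxC and HoxD genes, 1546 olfactory and vomeronasal receptor genes, and the 7328 genes at 0 in every PBS library by definition. All 3 sets are low in PBS and lie between 44.3% and 78.6% in the nanoparticle libraries.

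Gene length moved with the response over the whole table. Tested genes spanning at least 50 kb were called lower in 80.3% of cases with a median log2 fold change of -0.75, while those under 10 kb were called lower in 25.7% with a median of 0.34. Of the 7 tested Hox genes, 6 spanned under 10 kb, and the exception was Hoxa3 at 44.3 kb. Of these short Hox genes 5 were called lower, and among all tested genes under 10 kb a log2 fold change of -1 or less was reached by 5.15%. The 5 genes lie in the same cluster, and the part of gene length in their falls was not tested.

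Most tested genes listed around HoxA fell. Skap2, an adaptor protein gene whose nearer end lies 143 kb from the HoxA cluster, was at 36.9, 39.4 and 39.7 FPKM in PBS and 7.55, 7.56 and 7.54 after nanoparticles, a log2 fold change of -2.21 (SE 0.041, limma adjusted p = 8.15e-11). It spans 155 kb. Evx1, a homeobox gene 52.6 kb beyond Hoxa13, was listed at 0 in PBS and did not exceed 0.0661 FPKM after nanoparticles. Next to it, Hibadh, a mitochondrial valine-breakdown enzyme gene spanning 94.2 kb, went from 33.6 ± 0.643 to 16.9 ± 1.498 FPKM, with a log2 fold change of -0.96 (limma adjusted p = 1.90e-07). Of 6 tested genes in the list for this neighbourhood, 5 fell and none rose, with a median of -0.60. Over all tested genes 46.0% fell and 40.5% rose. On median-of-ratios scaling, and at an unadjusted limma p under 0.05, 1 of the 6 was called higher. Hibadh, Snx10 and Cbx3 of this list lay 285, 565 and 672 kb from the cluster. The part of distance or gene length in these changes was not tested. Hnrnpa2b1, an RNA-binding protein gene and the highest of the list, went from 473.6 to 443.1 FPKM (log2 fold change -0.10, limma adjusted p = 0.00533).

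Neighbours of the other clusters included expressed and near-silent genes. Around HoxB 5 of 7 tested genes rose and 2 fell (median 0.41), against 40.5% and 46.0% of all tested genes. None of 8 rose and 5 fell around HoxC (median -0.42). Around HoxD 1 of 8 rose and 6 fell (median -0.56). On median-of-ratios scaling 1 gene beside HoxC was called higher, and at an unadjusted limma p under 0.05 it was also 1. The nearest listed genes included Ttll6 and Skap1 at HoxB, with means of 0.038 and 0.010 FPKM in PBS and 0.191 and 0.965 after nanoparticles. Calcoco1, before HoxC, went from 24.7 to 14.4 FPKM and Smug1, a uracil-DNA glycosylase gene after it, from 4.32 to 2.97 FPKM (log2 fold changes -0.74 and -0.42, limma adjusted p = 1.10e-06 and 0.00292). Evx2, 8.75 kb from HoxD, was listed at 0 in PBS with a mean of 0.090 FPKM after nanoparticles, while Mtx2 on the other side went from 19.6 to 12.03 FPKM (log2 fold change -0.66, limma adjusted p = 3.15e-07).

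The wider neighbourhoods hold paralogous genes that moved differently. Atp5mc1, Atp5mc2 and Atp5mc3 encode the same subunit of mitochondrial ATP synthase. They lie 119 kb from HoxB, 249 kb from HoxC and 757 kb from HoxD. Atp5mc1 rose from 34.4 ± 1.33 to 111.5 ± 1.55 FPKM and Atp5mc3 from 255.5 ± 4.06 to 307.8 ± 9.23, while Atp5mc2 fell from 177.7 ± 2.96 to 99.9 ± 5.26 (log2 fold changes 1.67, 0.27 and -0.83). Snf8, an endosomal sorting gene near HoxB, rose from 24.99 to 72.5 FPKM, and Nfe2l1, a regulator of proteasome genes, fell from 110 to 86.4. Near HoxC, the transcription factor gene Atf7 fell from 13.1 to 5.35 FPKM and Hnrnpa1 was not called, at 322.8 and 342.9. Atf2 and Chn1 lie further from HoxD than Atp5mc3. Atf2 fell from 50.7 to 20.8 FPKM and Chn1, a Rac GTPase-activating protein gene spanning 165 kb, from 19.9 to 4.32.

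Cofactors of the Hox proteins both rose and fell. TALE homeodomain proteins (Pbx, Meis, Pknox and Tgif) bind DNA with Hox proteins or compete for related sites. Of 10 tested, 3 rose, 6 fell and 1 was not called, against 40.5% higher and 46.0% lower over all tested genes. The median log2 fold change of the 10 was -0.52, against -0.06 over all genes. Pbx3 went from 16.5 ± 0.583 to 2.66 ± 0.296 FPKM (log2 fold change -2.26, limma adjusted p = 1.22e-09) and is a long gene, spanning 202 kb. Tgif1 had the highest level of the list and went from 61.0 ± 1.89 to 46.9 ± 0.569 FPKM (log2 fold change -0.37). Among those that rose, Pbx4, named after its values were seen, did not reach 1 FPKM in any PBS library, and its direction was therefore set by the filter.

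**Figure D4:**
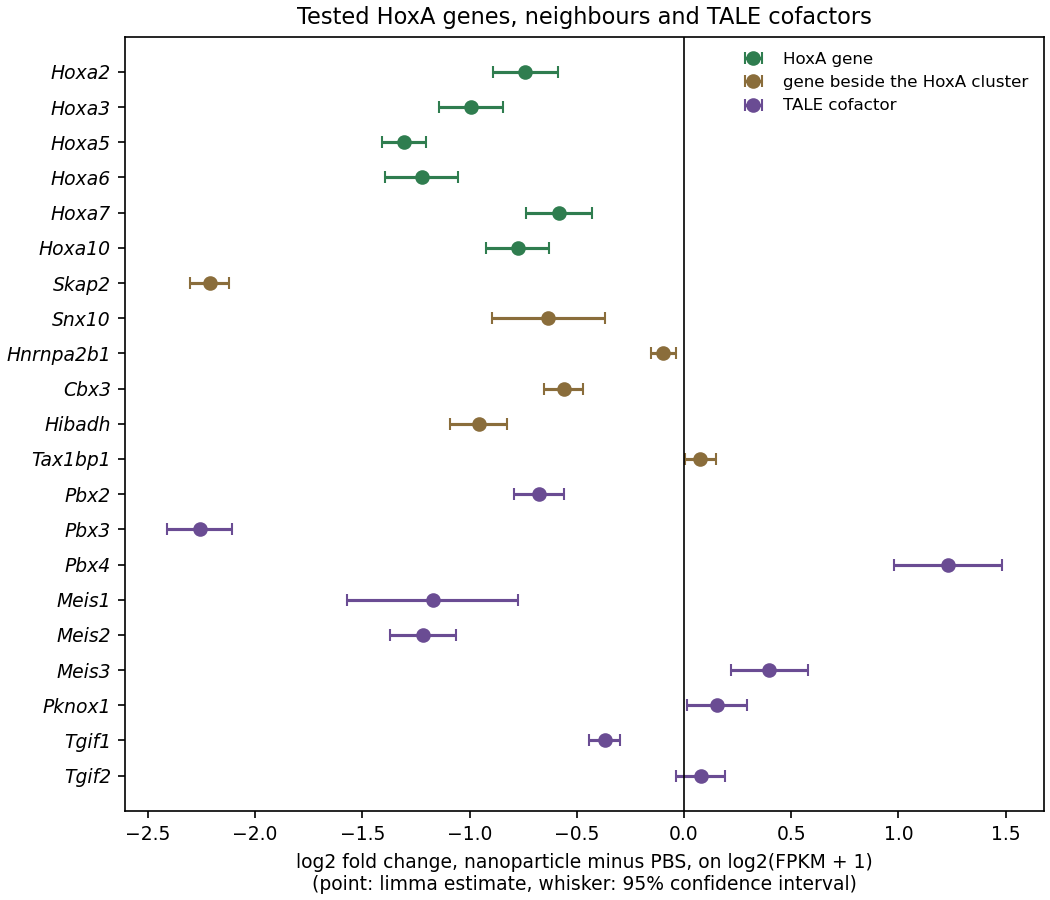
Log2 fold change (x axis, nanoparticle minus PBS on log2(FPKM + 1)) with its 95% confidence interval for 6 tested HoxA genes, 6 genes beside the cluster and 9 TALE cofactors. All the HoxA intervals shown lie below 0, and Pbx3 and Skap2 lie further left than any HoxA gene shown.

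Other homeobox genes and the signal that induces Hox genes were also listed. None of the 8 ParaHox and Evx genes was tested; all were listed at 0 in PBS and their sum was 0.377 to 0.440 FPKM in nanoparticle libraries. Retinoic acid, the ligand of the retinoid pathway, switches on 3′ Hox genes in embryonic cells. Of 8 tested genes of this pathway, 3 rose, 4 fell and 1 was not called (median -0.17). Over all tested genes 40.5% were higher and 46.0% lower. On the TPM scale 2 of the 8 rose and 5 fell. The filter fixed the direction of Crabp2, a retinoic acid-binding protein gene that rose. Rxra, the common partner of retinoid receptors, went from 19.4 to 4.81 FPKM (log2 fold change -1.81, limma adjusted p = 5.51e-10) and spans 86.5 kb. Cyp26b1, which degrades retinoic acid, rose from 2.49 ± 0.226 to 10.8 ± 0.494 FPKM (log2 fold change 1.76, limma adjusted p = 5.26e-09). Rarg, a retinoic acid receptor gene named after its values were seen and the highest of the list in PBS, fell from 28.7 to 16.6 FPKM (log2 fold change -0.75). Rdh10, a retinol dehydrogenase gene and the highest after nanoparticles, went from 21.7 to 24.6 FPKM, a call lost on the TPM scale (log2 fold change 0.17 against 0.03 there).

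Chromatin regulators of Hox genes moved in both directions. Of 12 tested PRC2 genes, whose complex methylates histone H3 at lysine 27, 5 rose, 6 fell and 1 was not called (median -0.15). Shares over all tested genes were 40.5% higher and 46.0% lower. The PRC2 catalytic subunits Ezh1 and Ezh2, spanning 35.3 and 65.2 kb, fell from 14.2 to 5.46 and from 29.7 to 17.6 FPKM. Their log2 fold changes were -1.23 and -0.73 (limma adjusted p = 1.57e-08 and 1.76e-07). The histone-binding subunit Rbbp7 rose from 114 to 158 FPKM. Of 19 tested PRC1 genes, 2 rose, 13 fell and 4 were not called (median -0.39), with Phc2, the highest of the list, at 100.6 and 65.0 FPKM in PBS and nanoparticle libraries (log2 fold change -0.62, limma adjusted p = 1.54e-08). Lists that repress and lists that maintain Hox expression both held genes that fell. Over all tested genes 46.0% were lower, and no test compared the lists.

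Among 17 trithorax and MLL genes, 6 rose, 6 fell and 5 were not called (median 0.01); on the TPM scale 4 rose and 8 fell. Mllt3 and Mllt10, fusion partners of MLL in leukaemia, fell from 6.52 to 1.09 and from 16.0 to 3.11 FPKM (log2 fold changes -1.85 and -2.05, limma adjusted p = 3.05e-09 and 5.39e-09), and Psip1, a chromatin tether of MLL, was not called at 73.8 and 77.5 FPKM. Of 13 CTCF and cohesin genes, 10 fell, 1 rose and 2 were not called (median -1.09). For both lists, the shares over all tested genes were 46.0% lower and 40.5% higher. The cohesin subunit Stag2 went from 35.6 to 5.82 FPKM and the cohesin loader Nipbl from 20.8 to 3.76. Their log2 fold changes were -2.42 and -2.20 (limma adjusted p = 4.34e-11 and 4.13e-10). Long genes fell more often over the whole table, and the part of gene length in the falls of regulator genes was not tested. Rad21, the highest of the list, went from 139 to 118 FPKM.

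Markers fixed for the line and for other cell types were read beside these results. Krt8 and Krt18, keratins of luminal epithelium, were at 215 and 514 FPKM in PBS and 343 and 685 after nanoparticles, while Epcam was at 0.551 and 0.639. Of 6 tested epithelial markers, 5 rose and none fell, against 40.5% and 46.0% of all tested genes. At an unadjusted limma p under 0.05 none fell either. On the TPM scale, with 8 tested, 5 rose and 1 fell. The summed epithelial list was 800 to 814 FPKM in PBS and 1112 to 1153 after nanoparticles. Krt8 and Krt18 made up most of this sum, and 4 of the 10 listed markers were under 1 FPKM in every library. Of 8 fibroblast and mesenchymal markers 2 were tested, Pdgfra and Pdgfrb, and both fell (20.5 to 4.76 and 12.02 to 2.90 FPKM); the list's sum was 32.7 to 33.0 FPKM in PBS and 7.77 to 9.65 after nanoparticles, and Col3a1, Dcn, Lum and Thy1 were listed at 0 in PBS.

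Of 10 macrophage markers 4 were tested, 3 rose and 1 fell, and the filter fixed the direction of Csf1r and Mpeg1 among those that rose. The list's sum was 23.0 to 26.7 FPKM in PBS and 44.2 to 49.8 after nanoparticles, and Ptprc, Adgre1 and Fcgr1 were listed at 0 in PBS. The 6 endothelial markers held 1 tested gene, Cdh5, which fell, with list sums of 8.36 to 8.61 and 2.39 to 2.65 FPKM and Kdr and Emcn listed at 0 in PBS. None of 6 lymphocyte markers was tested, their sums were 0.104 to 0.229 and 0.873 to 0.976 FPKM, and Cd4, Cd8a and Ms4a1 were listed at 0 in PBS. The part of these markers in the Hox differences was not tested.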

How the data were processed

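RNA from 3 PBS and 3 nanoparticle samples of 4T1 cells was sequenced after mRNA enrichment. STAR, featureCounts, GRCm38 and mm10 are named, per the submitters' processing notes, without versions or roles. The deposited values were taken as FPKM made by the authors; the unit was inferred from the values, since the header does not name it. No step of 1 read could be found in values under 0.2 FPKM (at most 1.86% of ratios in any 1% bin), so the depth behind each value is unknown. The design put a count test first; without counts, limma was used. In all, 701 features without a gene identifier were left out.

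Genes that reached 1 FPKM in at least 3 of 6 libraries were fitted, as log2(FPKM + 1), with limma 3.58.1 (R 4.3.3, statmod 1.5.0; trend and robust eBayes, no replicate block), and p-values were adjusted by Benjamini-Hochberg over all tested genes. The fit was also run on simulated data in which far fewer genes changed than were called here, so that run does not check these calls. Ratios used exact permutation tests. Python 3.11.15, numpy 2.4.6, pandas 2.3.3, scipy 1.17.1 and matplotlib 3.10.9 were used. Positions, spans and exons came from GENCODE M21 (99.8% of tested genes matched).

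Every Hox gene was counted; some genes that the naming rule chose are not reported here. Tested ones are given in full, and the others by cluster, or by name where they reached 0.1 FPKM in every library of a group. From each list (TALE cofactors, ParaHox and Evx, retinoid pathway, PRC2, PRC1, trithorax and MLL, CTCF and cohesin, cluster neighbours) the 2 called genes of smallest adjusted p, the highest gene and the immediate neighbours were named. Markers named are defining genes of their lists. The members and lists were chosen with earlier results of these data known. Alternatives were a pseudocount of 0.1, no filter, a filter at 5 FPKM, TPM and median-of-ratios scaling, a replicate block, each library left out and a threshold of 0.01.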

Additional observations from a re-analysis of the deposited data

How the results depend on the processing

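All 6 falls among the tested Hox genes kept their direction and call under every alternative in which the gene was tested, and with one library left out their largest adjusted p was 0.00011, for Hoxa7. The number of Hox genes lower was 6, with 8 on the TPM scale, 7 with no filter and 6 to 7 with one library left out. The number higher was 0, and 0 in each fit with one library left out, but 9 with no filter, where more genes at 0 in PBS were tested. All 9 were listed at 0 in every PBS library and could only be called higher. With no filter the whole table had 8445 genes higher, against 4395. With one library left out the whole table had 4077 to 4328 genes higher and 4663 to 4947 lower. On the TPM scale the median of all genes was -0.19 against -0.06, a shift of -0.13, and summed levels changed by construction: HoxA 384.5 in PBS and 162.8 after nanoparticles, HoxB 1.04 after nanoparticles, HoxC 0.569 and 1.12, HoxD 0.721 and 2.06. Hox genes at 1 or more in every PBS library numbered 7, with 7 to 8 when a library was left out and 9 on the TPM scale. With one library left out, summed FPKM was 161.7 to 164.9 and 75.2 to 79.1 for HoxA, 0.447 to 0.523 after nanoparticles for HoxB, 0.2004 to 0.314 and 0.413 to 0.639 for HoxC, and 0.268 to 0.341 and 0.900 to 1.09 for HoxD. For the other named genes, 370 of the recomputed values kept their call, 6 gained one and 1 lost it.

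Replicate numbers are shared between groups, but same-numbered libraries did not deviate together (correlations -0.014, -0.043 and 0.041), so they were not treated as pairs. With the replicate block, 6 Hox genes were lower and 0 higher, and the whole table had 4389 genes higher and 4982 lower. Depth is unknown, so genes at 0 cannot be given an upper limit.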
